A study of Sus scrofa with 14 samples.

Results

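The cytochrome P450 enzymes of the CYP2 and CYP3 families were examined in the jejunal mucosa of piglets whose small intestine had been perfused with onion digests. A probe was counted as a member when its RefSeq accession belonged to a gene whose symbol starts with CYP2 or CYP3 followed by a letter, or when the study's own list of affected pig genes named it so. The rule gave 32 probes of 43603, for 9 genes of the 3020 that could be named: CYP2A19, CYP2B22, CYP2C33, CYP2C42, CYP2C49, CYP2D25, CYP2E1, CYP3A29 and CYP3A46. CYP3A39 is an older name of CYP3A46 in the reference used for naming. All 32 probes were found by accession. The study's list, drawn up from these ratios, added none.

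In the pig small intestinal segment perfusion (SISP) model, anaesthetised male piglets of 5 weeks had paired, neighbouring segments of mid small intestine filled and then perfused for 6 h, with blood supply and innervation left intact. All piglets had been given azaperone, sevoflurane and nitrous oxide. In pigs 1, 2 and 4, 1 segment received digested yellow onion (YOd) and the other the control digest made with saline (Sd), and in pigs 5, 6, 7 and 8, digested white onion (WOd) and Sd were paired in the same way. The onion digests had been diluted in peptone and the control digest, more strongly, in a saline solution with casamino acids and glucose, so onion and diluent cannot be told apart. Each segment gave 1 array, 14 in all, and pig 3 was not analysed here. The RNA came from scrapings that mix several cell types, and in such samples fewer cells of a type and less RNA per cell cannot be told apart. All 8 named enterocyte markers were well above background on every array, and of 5 named hepatocyte genes TTR was at the floor on 13 of 14 arrays and ALB on 10, whereas F2, SERPINA1 and HPX were well above background on 13, 14 and 14.

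P450 enzymes of these families sit in the endoplasmic reticulum, where they oxidise drugs, steroids, fatty acids and plant compounds with electrons supplied by the reductase POR. They are best known from the liver, but the absorbing cells of the small intestine also carry them, with CYP3A enzymes foremost, and so meet swallowed compounds before the blood does. Their genes are typical targets of the nuclear receptors PXR (NR1I2) and CAR (NR1I3), which sense foreign compounds. The level of many of them changes along the length of the gut.

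Levels are given as log2 of the signal over the 75th percentile of the array, so 0 is the 75th percentile and -4.43 is the floor to which all lower values were raised. They are compared between arrays for 1 probe and not between probes. A signal well above background was seen for 50.05% to 70.69% of probes, depending on the array, and precision is limited by how few arrays there are. The arrays lay on 5 slides. Paired segments shared a slide except in pigs 2 and 7, whose Sd arrays were together on a slide scanned in a second session.

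Pig 7 stood apart. With group means removed, paired arrays correlated across probes with r from 0.64 to 0.79 in the other pigs and with r = 0.31 in pig 7. A set of 340 probes was taken that differed by less than 0.8 between the segments of every other pig but by over 2.5 between those pigs. On these probes the 2 arrays of pig 7 differed by a median of 1.95 on the log2 scale, and 69.7% of them differed by more than 1. With each other pig held out in the same way, the median was 0.12 to 0.52, over 93 to 126 probes. Those sets required a difference under 0.8 between the 2 arrays of pig 7 as well, and are not matched to the 340 probes. Whether these arrays came from 1 animal, as their labels say, was not tested, and the ratios of pig 7 are within-pig ratios only if they did. The fits of the members that include pig 7 are therefore given with and without it.

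Of the 32 probes, 16 exceeded background clearly on each of the 14 arrays. They covered 6 genes: CYP2B22, CYP2C42, CYP2C49, CYP2D25, CYP3A29 and CYP3A46. The remaining genes were at the edge of detection or below it. For CYP2E1, which oxidises ethanol and other small molecules, 2 of 3 probes were at the floor on every array and the third rose above it on 1. For CYP2C33, no probe was above the floor on more than 7 arrays. The brightest CYP2A19 probe was well above background on 13 arrays, with log2 levels of at most -2.88.

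CYP2B22 is the pig member of the CYP2B subfamily, whose enzymes elsewhere are classic targets of CAR. On the Sd arrays its brighter probe (A_72_P185176) had log2 levels of 4.22 for pig 1, 1.05 for pig 2, 1.95 for pig 4, 2.42 for pig 5, -0.04 for pig 6, 1.32 for pig 7 and 3.13 for pig 8. The level thus spanned a 19.1-fold range between pigs, and the SD over the 7 Sd arrays, 1.41, was higher than that of 98.5% of the 2400 genes tested over all pigs. In the YOd segments the level was 4.90, 1.30 and 3.95 in pigs 1, 2 and 4. In the WOd segments it was 3.58, 0.71, -0.35 and 3.42 in pigs 5, 6, 7 and 8. The Sd, YOd and WOd values overlapped, and the pigs differed by more than the segments of a pig did.

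Within pigs, CYP2B22 was higher in the onion segment in 6 of 7. The log2 ratio was 0.68 for pig 1, 0.25 for pig 2, 2.00 for pig 4, 1.16 for pig 5, 0.75 for pig 6, -1.67 for pig 7 and 0.30 for pig 8. Pig 7, whose pairing is in doubt, was the only pig with a ratio below 0, and pig 4 had the largest rise. The dimmer CYP2B22 probe (A_72_P458896) gave nearly the same ratios, from -1.54 in pig 7 to 2.09 in pig 4. Among all genes tested, 14.8% had a ratio above 0 in 6 or 7 of the 7 pigs, and 4.38% in all 6 pigs other than pig 7.

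For YOd/Sd, the log2 fold change of CYP2B22 was 0.98 (SE 0.32, 95% interval 0.20 to 1.75), a 1.97-fold rise that passed the study's thresholds of a raw p under 0.05 and a fold change over 1.5. It did not pass the adjustment over all genes (adjusted p = 0.386 by limma). This probe is on the study's list of affected genes, which was drawn up from the same ratios, and that listing is not independent evidence. The call rested on pig 4, in whose absence the value was 0.47 and no longer passed. It also no longer passed after quantile normalization (0.87) or without scaling between arrays (0.67). When every probe was fitted, the dimmer probe passed as well, with 0.98 (SE 0.34), beside 4.96% of all probes. Fitting the slide as a block takes pig 2 out of this comparison, and the value was then 1.34 with an adjusted p of 0.0340 by limma, when 4.61% of all genes had an adjusted p under 0.05. With each gene on its least saturated probe, the adjusted p of that value was 0.0805.

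For WOd/Sd, the log2 fold change of CYP2B22 was 0.14 (SE 0.43, 95% interval -0.89 to 1.17), which did not pass. Without pig 7 it was 0.74 (SE 0.22), which passed the thresholds, with an adjusted p of 0.607 by limma. Over the 7 pigs the onion over Sd value was 0.50 (SE 0.33, adjusted p = 0.652 by limma). An exact two-sided sign-flip permutation test over the pigs gave p = 0.266, where the smallest p that 7 pigs allow is 0.0156. Without pig 7 the value was 0.86 (SE 0.21), higher in 6 of 6 pigs, and passed the thresholds with an adjusted p of 0.278. Hence whether CYP2B22 was called for WOd/Sd or for the onion over Sd depended on 1 pig.

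**Figure D1:**
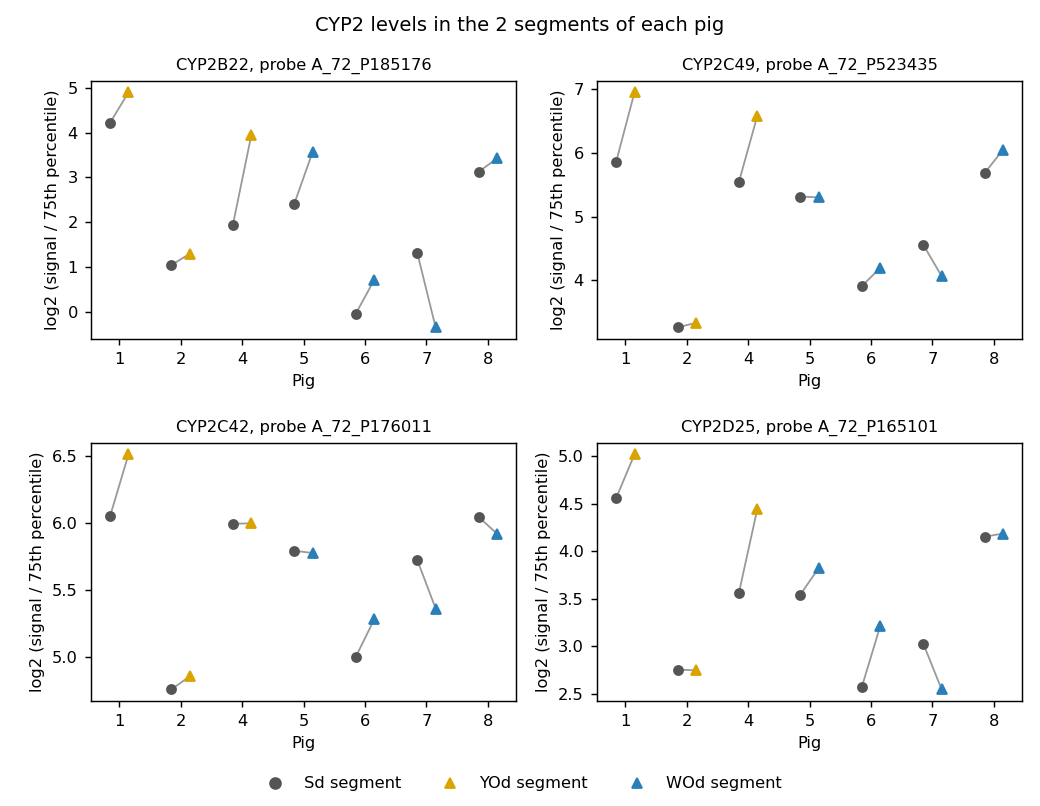
Log2 levels (signal over the 75th percentile of the array) of CYP2B22, CYP2C49, CYP2C42 and CYP2D25 in the 2 segments of each pig, with a grey line joining the segments of a pig; each panel has its own vertical scale. Circles are Sd segments and triangles are YOd (pigs 1, 2 and 4) or WOd segments (pigs 5 to 8). The pigs keep much the same order in the 4 panels, with pigs 2 and 6 low, and pig 7 is lower in the onion segment in each.

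CYP2C49 and CYP2C42 belong to the CYP2C subfamily, which handles drugs and fatty acids. The brightest CYP2C49 probe was saturated on 6 arrays, where a spot gives only a lower bound of the level, so the least saturated probe (A_72_P523435, saturated on none) is described. On it the log2 level in the Sd segment was 5.86 for pig 1, 3.26 for pig 2, 5.55 for pig 4, 5.32 for pig 5, 3.91 for pig 6, 4.56 for pig 7 and 5.69 for pig 8. Pigs 2 and 6 were the lowest, as they were for CYP2B22. The ratio was 1.09 for pig 1, 0.07 for pig 2, 1.04 for pig 4, -0.01 for pig 5, 0.29 for pig 6, -0.50 for pig 7 and 0.37 for pig 8.

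The rises of CYP2C49 in pigs 1 and 4 were over 2-fold and those in the other pigs were smaller. For YOd/Sd this probe gave a log2 fold change of 0.74 (SE 0.23), which passed the thresholds with an adjusted p of 0.406 by limma. Without pig 1 it was 0.56 and without pig 4 it was 0.58, and neither passed. The third CYP2C49 probe (A_72_P496311) gave 0.83 (SE 0.29) when every probe was fitted. The brightest, partly saturated probe gave 0.25 (SE 0.16) and did not pass. For WOd/Sd the least saturated probe gave 0.04 (95% interval -0.42 to 0.49), and without pig 7 it gave 0.21 (95% interval -0.24 to 0.67). The YOd value less the WOd value was 0.70 (SE 0.32, adjusted p = 0.904 by limma) on this probe, and without pig 7 it was 0.52. Fitting the slide as a block leaves only pigs 1 and 4 in YOd/Sd, the pigs with the large rises. The YOd/Sd value was then 1.07 (adjusted p = 0.0452 by limma), when 1.39% of all genes had an adjusted p under 0.05. In that fit, which leaves out pigs 2 and 7, the difference was 0.85 (adjusted p = 0.527 by limma). It passed the thresholds, as did 194 of the 2497 genes tested. The difference also passed without pig 2 (1.03) and without pig 8 (0.81).

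CYP2C42 had a single probe, which was not saturated. Its Sd levels ran from 4.76 in pig 2 to 6.05 in pigs 1 and 8. Its log2 ratio was 0.46 for pig 1, 0.10 for pig 2, 0.00 for pig 4, -0.02 for pig 5, 0.28 for pig 6, -0.36 for pig 7 and -0.13 for pig 8. The fitted values were 0.19 (95% interval -0.19 to 0.56) for YOd/Sd and -0.06 (95% interval -0.44 to 0.33) for WOd/Sd, or 0.05 (95% interval -0.41 to 0.50) without pig 7. Over the 7 pigs the interval ran from -0.20 to 0.30, and without pig 7 from -0.14 to 0.37, so a shared change of 1.5-fold in either direction lay outside both.

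CYP2D25 is the pig microsomal enzyme known for 25-hydroxylation of vitamin D. Its least saturated probe (A_72_P165101) had Sd levels of 4.56 for pig 1, 2.75 for pig 2, 3.56 for pig 4, 3.54 for pig 5, 2.57 for pig 6, 3.03 for pig 7 and 4.15 for pig 8. The ratio was 0.46 for pig 1, -0.01 for pig 2, 0.88 for pig 4, 0.28 for pig 5, 0.64 for pig 6, -0.48 for pig 7 and 0.03 for pig 8. Again pig 4 had the largest rise and pig 7 a decrease. For YOd/Sd the value was 0.45 (SE 0.20), which did not pass, and without pig 2 it was 0.67, which passed. For WOd/Sd it was 0.12 (95% interval -0.38 to 0.61), and without pig 7 it was 0.32 (95% interval -0.16 to 0.80).

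The CYP3A genes are the intestinal P450s with the broadest range of substrates, and here they were the hardest to measure. The brightest CYP3A46 probe (A_72_P743157) was saturated on all 14 arrays, so it gives no fold. The brightest CYP3A29 probe (A_72_P755349) was saturated on 9 arrays, and of the other CYP3A probes A_72_P797432 was saturated on 12 and A_72_P737020 on 8. By comparison, 2.38% of all probes were saturated on 1 or more arrays.

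CYP3A29 is the pig gene most often set beside human CYP3A4. Its least saturated probe (A_72_P088491, saturated on 1 array) had Sd levels of 4.10 for pig 1, 5.10 for pig 2, 6.03 for pig 4, 3.24 for pig 5, 6.28 for pig 6, 5.91 for pig 7 and 6.57 for pig 8. The order of the pigs was not that of the CYP2 genes, since pig 6 was high and pigs 1 and 5 were low. The onion segments followed within 0.85 on the log2 scale in every pig but pig 7, where the level was 3.24 in the WOd segment, 2.68 lower than in Sd. The ratio was 0.57 for pig 1, 0.29 for pig 2, 0.85 for pig 4, 0.43 for pig 5, 0.02 for pig 6 and 0.12 for pig 8.

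On this CYP3A29 probe the YOd/Sd value was 0.57 (SE 0.16, adjusted p = 0.406 by limma), with a raw p under 0.05 but a change of 1.48-fold, just under the threshold of 1.5-fold. Without pig 2 it was 0.71 and passed. The WOd/Sd value was -0.53 (95% interval -1.68 to 0.62) and without pig 7 it was 0.19 (95% interval -0.27 to 0.65). Over all pigs it was -0.06, and without pig 7 it was 0.38 (SE 0.13), higher in 6 of 6 pigs but under 1.5-fold. Thus the sign of the WOd/Sd and of the onion over Sd value on this probe turned with pig 7.

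The least saturated CYP3A46 probe (A_72_P742947) had the widest range of Sd levels between pigs among the 16 probes. Its Sd level was 2.90 for pig 1, 5.65 for pig 2, 0.16 for pig 4, 2.17 for pig 5, 3.93 for pig 6, 4.22 for pig 7 and 5.05 for pig 8. The onion level was 3.41, 5.72 and 0.50 in pigs 1, 2 and 4, and 2.13, 4.02, 2.07 and 4.79 in pigs 5, 6, 7 and 8. Except in pig 7, the segments of a pig were thus within 0.51 of each other, while the pigs were up to 5.49 apart. Neither the YOd/Sd value of 0.30 (95% interval -0.07 to 0.67) nor the WOd/Sd value of -0.59 (95% interval -1.46 to 0.28) passed, and without pig 7 the latter was -0.07.

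The CYP3A probes differed in pattern from one another. Across the 14 arrays, 2 to a pig, the probe pairs of the CYP3A genes, within and between genes, correlated with r from -0.59 to 0.95 (21 pairs). Within 1 gene r ran from -0.40 to 0.90 for CYP3A29 and from -0.31 to 0.59 for CYP3A46, with partly or wholly saturated probes among them. Probe pairs of the same CYP2 gene correlated with r from 0.92 to 1.00 (7 pairs). Another CYP3A46 probe (A_72_P322704) had ratios of -6.61 in pig 8, whose WOd segment lay at the floor, and -2.29 in pig 7. Its ratios in the other pigs ran from -0.87 to 0.56. It passed for WOd/Sd when every probe was fitted, beside 1.27% of all probes, but the ratio of pig 8 is a bound, so no fold is given. In pig 8 the other CYP3A46 probes had ratios of -0.26 to 0.20. CYP3A29, CYP3A46 and CYP3A22 are neighbouring genes of closely related sequence, and whether a probe also binds RNA of a neighbour or of another allele was not tested.

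**Figure D2:**
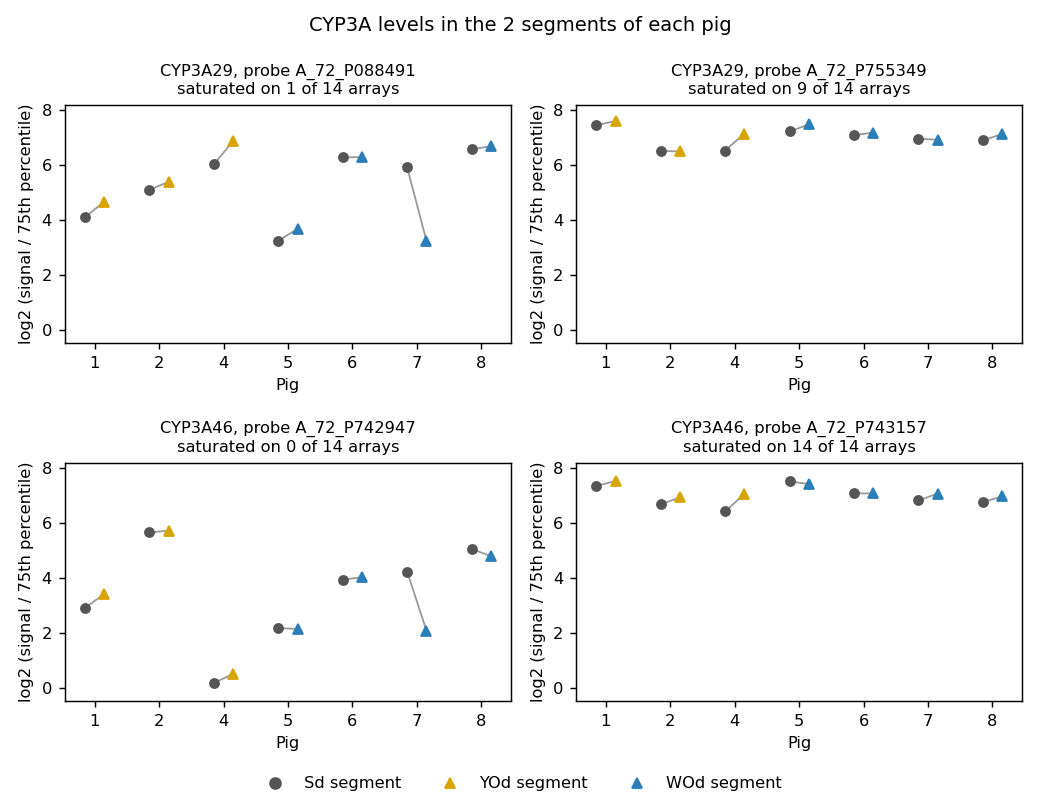
Log2 levels (signal over the 75th percentile of the array) of 2 probes each of CYP3A29 and CYP3A46 in the 2 segments of each pig, on a common vertical scale; circles are Sd and triangles are YOd or WOd segments. The probes on the right, saturated on 9 and 14 arrays, are nearly flat, whereas on the left the pigs are far apart and the segments of a pig close together, except in pig 7, where the WOd segment is lower by 2.68 (CYP3A29) and 2.15 (CYP3A46).

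CYP2A19, an enzyme that clears coumarin and the boar taint compound skatole, was dim on all arrays. On its brightest probe the log2 ratio was 0.46, 0.84, 0.23, 0.66, 0.34 and -0.82 in pigs 1, 2, 4, 5, 6 and 8. In pig 7 both segments lay at the floor. The YOd/Sd value was 0.51 (SE 0.17, adjusted p = 0.386 by limma), with a raw p under 0.05 but a change under 1.5-fold. Without pig 4 it was 0.65, which passed. For WOd/Sd it was 0.04, and 0.06 without pig 7. Another CYP2A19 probe (A_72_P441838), above the floor on 11 arrays, did not bear out the YOd/Sd value. When every probe was fitted, it gave 0.15 (SE 0.18) for YOd/Sd and 0.45 (SE 0.24) for WOd/Sd. Neither had a raw p under 0.05. The ratios of this probe were 0.53, 0.00 and -0.09 in pigs 1, 2 and 4, and 0.23 in pig 8. CYP2C33 entered 3 of the 4 comparisons with values of 0.44 (YOd/Sd), 0.05 (onion over Sd, 0.06 without pig 7) and 0.69 (YOd minus WOd effect, 0.77 without pig 7), and passed none. Since it was above the floor on 7 arrays, these values say little about its level.

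Counted together, 8 members were tested for YOd/Sd and 1, CYP2B22, passed the thresholds, beside 4.53% of the 2449 genes tested. Of the 8, CYP3A46 was represented by a probe saturated on all 14 arrays, CYP3A29 by a probe saturated on 9, CYP2C49 on 6 and CYP2D25 on 1. A raw p under 0.05 was reached by 2, CYP2B22 and CYP2A19, beside 11.2% of all genes. All 8 values were above 0, as were 72.9% of all genes, with a median of 0.36 beside 0.14 over all genes, but 6 were above 0 after quantile normalization (0.15 beside 0.05) and 5 without scaling (0.06 beside -0.16). Scaling thus set the sign of the median of all genes, and with it the split of calls: 79.3% of the genes that passed for YOd/Sd were higher in YOd, and 6.86% without scaling. Relative to the median of all genes, that of the members was higher under each of these scalings. For WOd/Sd, 0 of 7 members passed by limma, beside 1.19% of all genes. None of the 7 had a raw p under 0.05, beside 2.76% of all genes, and the median was 0.09 beside 0.05. Without pig 7, 1 of 7 passed, beside 3.55% of all genes, and the median was 0.20 beside 0.02. With normexp background correction, 41.7% rather than 65.5% of the genes that passed for WOd/Sd were higher. For the onion over Sd, 76.7% of those that passed were higher, with 25.0% without scaling and 12 of 20 with normexp, and 0 of 8 members passed by limma, beside 1.25% of all genes, and none had a raw p under 0.05, beside 7.04%. In the exact sign-flip test 0 of 8 had a p under 0.05, beside 7.67% of all genes. Without pig 7, 1 of 8 passed, beside 2.03%, and 2 had a raw p under 0.05, beside 10.1%. With the least saturated probe of each gene, 2 of 8 passed for YOd/Sd, CYP2B22 and CYP2C49, beside 4.58% of all genes, and 4 of 8 had a raw p under 0.05, beside 11.4%. None passed by limma for WOd/Sd (beside 1.36%), the onion over Sd (beside 1.25%) or the difference between onions (beside 3.68%), where none had a raw p under 0.05. Without pig 7, 1 of 8 passed for the onion over Sd on these probes, beside 2.07%, and 4 of 8 had a raw p under 0.05, beside 10.0%. No member reached an adjusted p under 0.05 with all pigs or without pig 7, on the brightest or the least saturated probes.

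The difference of the effects, YOd less WOd, was above 0 for all 8 members, beside 64.4% of all genes, though for 3 of 8 without scaling. Of the 8, 0 passed by limma, beside 3.52% of all genes, and none had a raw p under 0.05, beside 4.12%. Without pig 7 the difference was above 0 for 7 of 8, beside 64.9% of all genes, and 0 passed, beside 4.46%. With all pigs the median was 0.27 beside 0.10 over all genes, and without scaling -0.01 beside -0.16. Of the genes that passed, 63.6% had the higher value for YOd, 6.12% without scaling and 79.2% with normexp. For CYP2B22 it was 0.84 (95% interval -0.68 to 2.36), and without pig 7 it was 0.24 (95% interval -0.78 to 1.26). A difference between the 2 onion types was therefore not detectable for CYP2B22, and the interval also holds differences of over 2-fold.

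**Figure D3:**
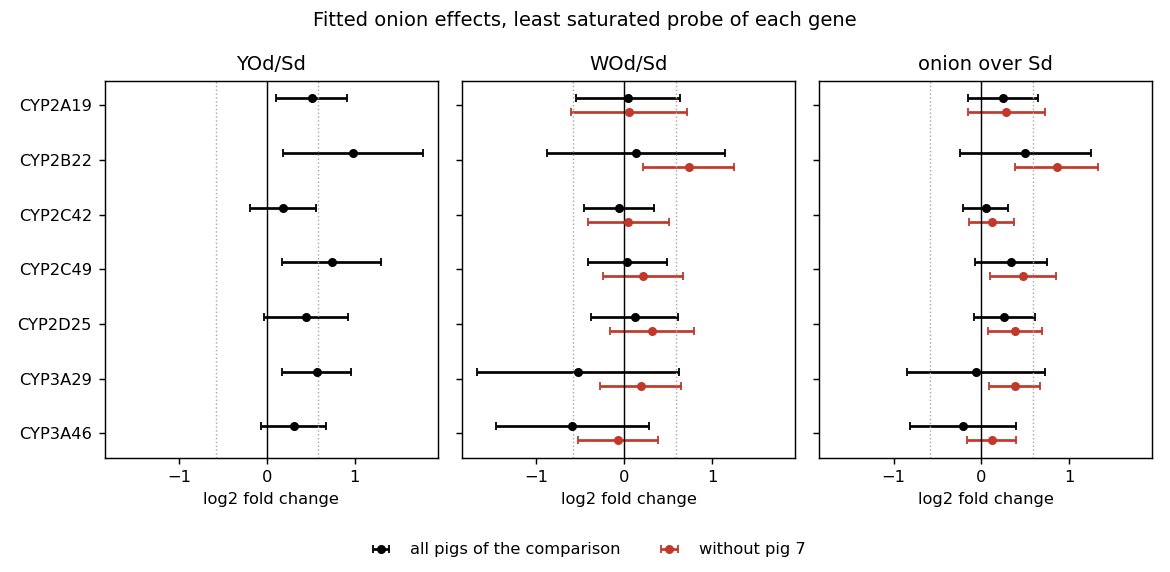
Log2 fold changes of 7 members for YOd/Sd, WOd/Sd and onion over Sd, on the least saturated probe of each gene; points are limma estimates and bars their 95% intervals, in black with all pigs of a comparison and in red without pig 7, which has no part in YOd/Sd. Dotted lines mark a 1.5-fold change. CYP2B22 and CYP2C49 lie right of the line in YOd/Sd, CYP2B22 does so in the other panels only without pig 7, and the CYP3A intervals narrow when pig 7 is left out.

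**Figure D4:**
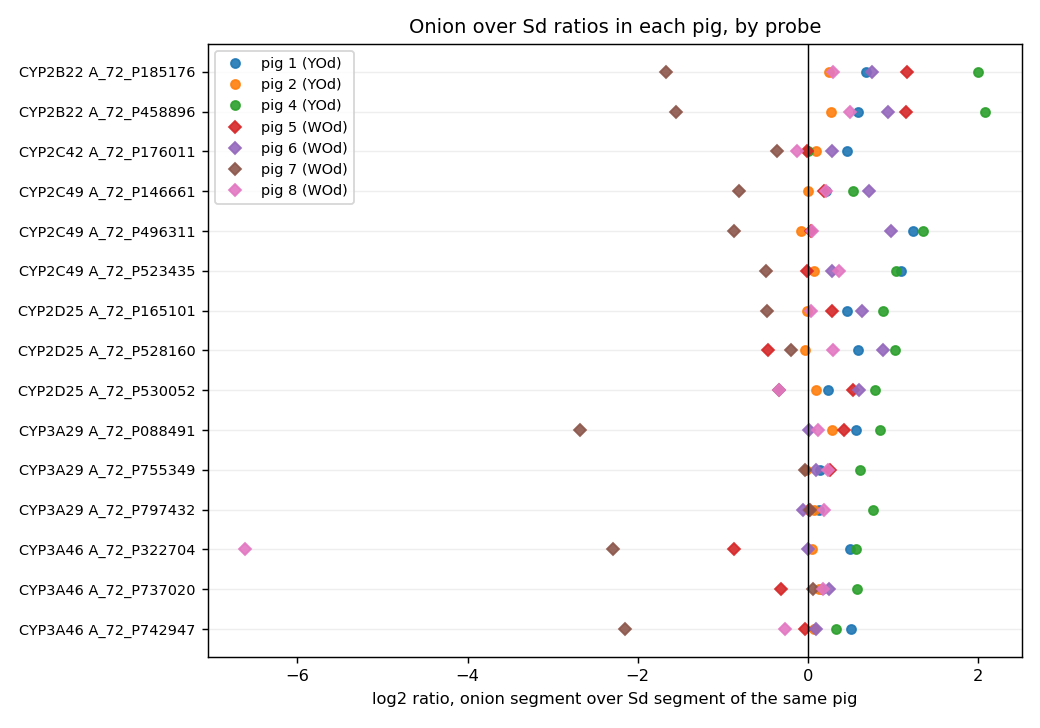
Log2 ratio between the segments of a pig, onion over Sd (horizontal axis), in each of the 7 pigs for the 15 member probes clearly above background and not saturated throughout; circles are pigs given YOd and diamonds pigs given WOd. Pig 7 is the lowest point of 8 of the 9 CYP2 probes, among them both of CYP2B22 (-1.67 and -1.54), and of 3 of the 6 CYP3A probes, and pig 8 is at -6.61 on 1 CYP3A46 probe.

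The levels of the CYP2 genes ran in parallel over the arrays, and their ratios within pigs did so less closely. Over the 14 arrays, probe pairs of different CYP2 genes correlated with r from 0.80 to 0.96 (29 pairs among CYP2B22, CYP2C42, CYP2C49 and CYP2D25), and over the 7 Sd arrays with r from 0.77 to 0.98. The ratios within the 7 pigs correlated with r from 0.48 to 0.95, and without pig 7 with r from -0.23 to 0.90. The lowest of the latter were those of CYP2C42 with the CYP2B22 probes (-0.23 and -0.15). These coefficients are descriptions, since the arrays come 2 to a pig and share their scaling.

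Markers of the ileum, the last stretch of the small intestine, moved with the CYP2 genes in the opposite direction. SLC10A2, the ileal bile acid transporter, had log2 levels in the Sd segments of -2.62 for pig 1, -1.21 for pig 2, -1.86 for pig 4, -1.15 for pig 5, 1.24 for pig 6, -1.93 for pig 7 and -3.74 for pig 8. FABP6, the ileal bile acid binding protein, was at 3.70 for pig 2, 6.47 for pig 6 and 1.68 for pig 7, and at -0.33 or below in the other 4 Sd segments. Pigs 2, 6 and 7 also had the 3 lowest Sd levels of CYP2B22, CYP2C49, CYP2C42 and CYP2D25. Over the 7 Sd arrays FABP6 correlated with these 4 genes with r from -0.93 to -0.87, and SLC10A2 with r from -0.80 to -0.72.

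The ratios within pigs showed the same for CYP2B22. The SLC10A2 ratio was -1.01 for pig 1, close to 0 for pig 2, -2.57 for pig 4, -1.58 for pig 5, -0.51 for pig 6, 1.18 for pig 7 and -0.69 for pig 8, and in pigs 4 and 8 it is a bound because the onion segment lay at the floor. Pig 4, with the largest decrease of SLC10A2, had the largest rise of CYP2B22, and pig 7, the only pig in which SLC10A2 was clearly higher in the onion segment, was the only one in which CYP2B22 was lower. Over the 7 pigs the 2 ratios correlated with r = -0.96, and without pig 7 with r = -0.95. For CYP2C49, CYP2C42 and CYP2D25 the coefficient was -0.74, -0.36 and -0.76 over the 7 pigs, on the brightest probe of each gene, and without pig 7 it was -0.34, 0.24 and -0.62, nearer to 0 for CYP2C49 and CYP2D25 and of the other sign for CYP2C42. FABP6 did not follow in this way: its ratio ran from -6.04 in pig 6 to 1.53 in pig 5, and correlated with that of CYP2B22 with r = -0.18, or 0.03 without pig 7. Markers of other kinds also went with CYP2B22. Over the 7 pigs its ratio correlated with those of the crypt and cycling markers ASCL2 (r = 0.83) and TOP2A (r = -0.84), which went opposite ways. Over the 14 arrays their levels gave r = 0.54 and -0.47. For the enteroendocrine markers CCK and SST, r was 0.85 and 0.80 over the arrays, beside -0.84 for SLC10A2. On the ratios it was 0.42 and 0.19, beside -0.96. For CHGB, GCG and CHGA it was 0.73, -0.25 and -0.01 over the arrays, and -0.11, -0.61 and -0.52 on the ratios. Among the hepatocyte genes SERPINA1 had 0.77 over the arrays and 0.76 on the ratios. HPX had 0.58 and -0.02 and F2 had -0.42 and 0.23, in the same order. The part of a segment's place along the intestine in the CYP2 ratios was not tested.

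**Figure D5:**
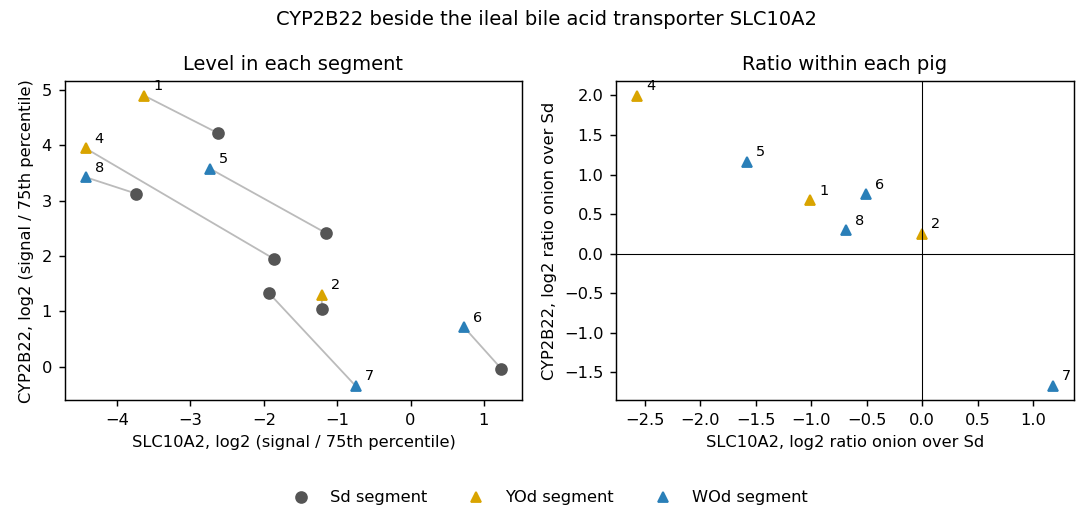
CYP2B22 (vertical axis) against the ileal transporter SLC10A2 (horizontal axis), as log2 levels in the 14 segments (left, with a line joining the segments of a pig) and as log2 ratios within each pig, onion over Sd (right); numbers give the pig, circles are Sd and triangles YOd or WOd segments. The ratios run from pig 4 (-2.57, 2.00) to pig 7 (1.18, -1.67), with r = -0.96 over 7 pigs.

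The signals of the markers of a list were added before the log2 was taken, so the brightest marker weighs most. This log2 of the summed signal ran from -2.11 to 6.51 for the 2 ileal markers over all segments. Those of other lists had narrower ranges. For the 8 named enterocyte markers, all of them saturated on 13 or 14 arrays, it ran from 9.43 to 10.48 in Sd segments. In YOd segments it ran from 9.92 to 10.46 and in WOd segments from 9.97 to 10.37. For the 5 named hepatocyte genes it stayed between -0.95 and 0.47 in all segments.

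The genes whose levels most resembled each member over the 14 arrays were found among the other genes tested, with no test. For CYP2B22 they were RABAC1 (r = 0.94), FAM213B (0.93) and CTSZ (0.93). For CYP2C49 they were GHR (0.96), LIPC (0.95) and PGRMC1 (0.94), and for CYP2C42 GHR (0.95), SLC7A9 (0.94) and PGRMC1 (0.93). PGRMC1 is a membrane protein that binds heme and P450 enzymes. For CYP2D25 they were AQP10, CLDN15 and SLC52A2 (r from 0.94 to 0.97), genes of water, ion and riboflavin transport. For CYP3A29 they were SLC5A4, ST6GALNAC4 and RARRES2 (r from 0.91 to 0.92), with the CYP3A29 probe saturated on 9 arrays. For the saturated CYP3A46 probe they were ANPEP, SLC5A1 and SLC44A4, whose probes were also saturated on all 14 arrays, with r from 0.998 to 1.00.

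Genes that work with these P450s were looked at as lists. Of 15 electron donors, nuclear receptors and other regulators, 12 could be named and tested, and 0 passed by limma in any of the 4 comparisons, with or without pig 7 (beside 4.53%, 1.19%, 1.25% and 3.52% of all genes with it). Their median log2 fold change was 0.09 for YOd/Sd beside 0.14 over all genes, and 0.08 for WOd/Sd beside 0.05, or 0.12 beside 0.02 without pig 7. PPARGC1A, a coactivator of nuclear receptors, had a raw p under 0.05 for YOd/Sd, with -0.49 (SE 0.17), and for the onion over Sd, with -0.39 (SE 0.13), or -0.31 (SE 0.13) without pig 7, all under 1.5-fold. It was 1 of 12 for YOd/Sd, beside 11.2% of all genes. Without pig 7, 3 of 12 had a raw p under 0.05 for the onion over Sd, beside 10.1% of all genes. Besides PPARGC1A these were CYB5A (0.27, SE 0.12, its probe saturated on 12 arrays) and PGRMC1 (0.30, SE 0.13, saturated on 4), both higher and under 1.5-fold. The sensors NR1I2 (-0.15) and NR1I3 (0.48) did not pass for YOd/Sd. Of 12 genes of heme synthesis and breakdown, 4 were tested and 1 passed, for YOd/Sd, beside 4.53% of all genes. This was HMOX1, the inducible heme oxygenase, with 0.69 (SE 0.23, adjusted p = 0.386 by limma) and ratios of 0.36, 0.33 and 1.37 in pigs 1, 2 and 4. Of 32 other genes of drug metabolism and efflux, 12 were tested and 0 passed by limma in any comparison with pig 7. A raw p under 0.05 was reached by 2 of 12 for YOd/Sd, beside 11.2% of all genes, the efflux pump ABCG2 with 0.46 (SE 0.18) and the flavin monooxygenase FMO1 with 0.54 (SE 0.22). Without pig 7, EPHX1, the microsomal epoxide hydrolase, passed for WOd/Sd (0.90, beside 3.55% of all genes) and for the onion over Sd (0.64, beside 2.03%).

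Of the P450 genes of other families, 12 were tested for YOd/Sd and 2 passed, beside 4.53% of all genes. CYP27A1, the mitochondrial sterol 27-hydroxylase, had a value of 1.02 (SE 0.41), with ratios of 1.01 for pig 1, -0.19 for pig 2 and 2.25 for pig 4. CYP17A1, the steroid 17-alpha-hydroxylase, had a value of 0.83 (SE 0.20). It was also the only 1 of 11 that passed for the onion over Sd with all pigs, beside 1.25% of all genes, with 0.60 (SE 0.15, adjusted p = 0.610 by limma), or 0.66 (SE 0.16) without pig 7. Its ratio was 1.35, 0.62, 0.52, 0.90, 0.59, 0.22 and 0.00 in pigs 1, 2, 4, 5, 6, 7 and 8. CYP17A1 was dim, with log2 levels of at most -2.68. Its Sd segments of pigs 2, 6, 7 and 8 and the WOd segment of pig 8 lay at the floor, so the ratios of pigs 2, 6 and 7 are bounds and that of pig 8 has no meaning. Without pig 7, 3 of 11 passed for the onion over Sd, beside 2.03% of all genes: CYP17A1, CYP27A1 (0.64) and CYP39A1 (0.64). In WOd/Sd 0 of 11 passed by limma, with or without pig 7. CYP11A1, the cholesterol side-chain cleavage enzyme, stayed under 1.5-fold but had a raw p under 0.05 for YOd/Sd (0.48), WOd/Sd (0.53, and 0.49 without pig 7, when it no longer did) and the onion over Sd (0.51, and 0.49 without pig 7). In the difference between onions 0 of 12 passed or had a raw p under 0.05.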

How the data were processed

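Labelled cRNA of 14 jejunal mucosa samples was hybridised to 1-colour Agilent arrays. In the scanner output the authors deposited, each spot has a processed intensity, already background-subtracted, and its raw and local background intensities. They also deposited log2 values, used as an alternative, for which the normalization is not given in the sources used here. Outlier spots were left out, the remaining spots of a probe averaged, the signal expressed relative to the array's 75th percentile, floored at the pooled 40th percentile and set on a log2 scale. Probes were named through RefSeq accessions and the Sscrofa11.1 reference, used for names and neighbouring genes. Accessions gave a symbol for 6686 of 43603 probes. Each gene was represented by its brightest probe on average.

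Genes above the floor on at least as many arrays as the smaller group held entered a paired limma model (version 3.58.1, R version 4.3.3) that had a term for each pig, following the study's methods, and p-values were adjusted (Benjamini-Hochberg) over all of them. The pairing comes from the labels, which name the pig. The check of it, r from 0.31 to 0.79 between the 2 arrays of a pig, was made on 19560 probes. A gene passed when raw p was under 0.05 and the fold change over 1.5. Sign-flip tests over pigs were run for all genes tested. The fits were tested on simulated data. Python 3.11.15 was used for the other steps.

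The members and the lists of partner genes and markers were chosen with earlier results of these data known. Members well above background on all arrays are given pig by pig, and from the other lists the genes that passed in a comparison are named. PPARGC1A, CYB5A, PGRMC1, NR1I2, NR1I3, ABCG2, FMO1, EPHX1, CYP39A1 and CYP11A1 were singled out after their values were seen. So were the markers set beside CYP2B22, the described CYP3A and CYP2 probes and the pig 7 probes. Alternatives covered scaling, background correction, floor, filter, probe, the authors' log2 values, block, slide and each pig left out. The choice of the least saturated probe was made after seeing the data. Replicates are pigs, 3 for YOd and 4 for WOd. No probe sequence was used here, so none is shown.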

Additional observations from a re-analysis of the deposited data

Results flagged for a closer look

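In each set of 7 pigs, a pig was singled out when its distance to the nearest other pig was large against the whole range (Dixon's 95% criterion), over 32 sets of levels or ratios of the 16 probes well above background on all arrays. Chance alone singles out about 1 set in 20. The criterion was met by 4 sets, all of them ratios of CYP3A probes.

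On the least saturated CYP3A29 probe the log2 ratio of pig 7 was -2.68, where the nearest other pig was at 0.02. On the least saturated CYP3A46 probe the ratio of pig 7 was -2.15, where the nearest was at -0.26. On another CYP3A46 probe (A_72_P322704) the ratio of pig 8 was -6.61, where the nearest, pig 7, was at -2.29. On a CYP3A29 probe saturated on 12 arrays (A_72_P797432), the ratio of pig 4 was 0.76, where the nearest was at 0.19.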

How the results depend on the processing

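The number of genes that passed for YOd/Sd, 111, became 63 after quantile normalization, 65 with normexp background correction, 20 without the replicate block, 325 with the slide as a block and 1303 when every probe was fitted. For WOd/Sd, 29 became 12 with normexp, 54 with the floor at the 20th percentile, 10 without the replicate block, 87 with the slide and 327 with every probe. For the onion over Sd, 30 became 16 without scaling, 48 with the lower floor, 10 without the block, 77 with the slide and 216 with every probe. For the YOd minus WOd effect, 88 became 48 with normexp, 5 without the block, 191 with the slide and 1570 with every probe. When single pigs were omitted, these counts were 56 to 327, 44 to 87, 18 to 49 and 44 to 153. The slide as a block leaves out pigs 2 and 7. For YOd/Sd it gives an adjusted p under 0.05 by limma for CYP2B22 (0.0340), beside 4.61% of all genes. Among the least saturated probes it does so for CYP2C49 (0.0452), beside 1.39% of all genes.

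Among the members, the 1 gene that passed for YOd/Sd became 0 after quantile normalization, 0 without scaling, 0 without the replicate block, where CYP2B22 had the same 0.98 with a raw p of 0.386 by limma, and 2 with the lower floor, with the mean of all probes or with the least saturated probe. The 0 for WOd/Sd became 1 with the slide and 1 with the mean of probes, the 0 for the onion over Sd became 1 with the slide, and the 0 for the YOd minus WOd effect became 1 with the mean of probes and, on the least saturated probes, 1 with the slide. When single pigs were omitted, the counts were 0 to 1 for WOd/Sd and 0 to 1 for the onion over Sd. The block changed no other call of a member gene, apart from CYP2C49 on its least saturated probe, which no longer passed for YOd/Sd.

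Values near 0 changed sign with the scaling. For YOd/Sd, CYP2C42 was -0.12 without scaling, CYP2C49 -0.024 after quantile normalization and -0.060 without scaling, CYP3A29 -0.025 and -0.062 in the same order, and CYP3A46 on its least saturated probe -0.0068 without scaling. For the onion over Sd, CYP2C42 was -0.010 after quantile normalization and -0.10 without scaling, and CYP2C49 -0.032 and -0.00040. For WOd/Sd, CYP2C49 was -0.037 after quantile normalization and CYP2A19 -0.00058 with normexp. For the YOd minus WOd effect without scaling, CYP2C42 was -0.034, CYP2C49 -0.10, CYP2D25 -0.017 and CYP3A29 -0.17, and CYP3A29 was -0.12 after quantile normalization.

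The choice of probe and of pigs turned others. For WOd/Sd, CYP3A29 was -0.12 with the mean of probes and -0.53 with the least saturated probe, and for the onion over Sd -0.058 with the latter. With the slide as a block, CYP2C42 was 0.045 for WOd/Sd, CYP3A29 on its least saturated probe 0.19 for WOd/Sd and 0.40 for the onion over Sd, CYP3A46 on its least saturated probe 0.13 for the onion over Sd, and CYP2C49 -0.00034 for the YOd minus WOd effect. When single pigs were omitted, WOd/Sd values ran from -0.16 to 0.33 for CYP2A19, -0.21 to 0.74 for CYP2B22, -0.17 to 0.045 for CYP2C42, -0.14 to 0.37 for CYP2C49 and -0.053 to 0.26 for CYP2D25. On the least saturated probes they ran from -0.075 to 0.21 for CYP2C49, -0.057 to 0.32 for CYP2D25 and -0.85 to 0.19 for CYP3A29. Onion over Sd values ran from -0.021 to 0.12 for CYP2C42 and, on the least saturated probes, from -0.21 to 0.38 for CYP3A29 and -0.33 to 0.12 for CYP3A46. The YOd minus WOd effect ran from -0.12 to 0.39 for CYP2C49 and -0.077 to 0.24 for CYP3A29. Apart from the construction of each alternative, the cause of these changes was not tested. Mean Sd levels of 5 members moved by less than their SD over pigs under quantile normalization, no scaling and normexp. Of the member probes, 15 rather than 16 were detected on all arrays when detection meant a signal above the floor.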

Other observations

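On the 340 probes by which pig 7 was described, the WOd array of pig 7 correlated with its own Sd array with r = 0.24, after subtraction of the mean over the other pigs. It correlated with the Sd and the WOd array of pig 5 with r = 0.59 and 0.58. With the Sd and the YOd array of pig 1, r was 0.46 and 0.41. Both arrays of pig 5 lay on the same slide as the WOd array of pig 7, and those of pig 1 on another. The part of the slide in these coefficients was not tested. The Sd array of pig 7 correlated with every array of the other pigs with r from -0.31 to 0.26.

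On the Sd arrays and the brightest probes, the SD between pigs was above the median of all genes, 0.39, for each CYP2 gene tested. It was 1.41 for CYP2B22, 0.97 for CYP2C49 (saturated on 6 arrays) and 0.75 for CYP2D25 (saturated on 1). For CYP2C33, CYP2C42 and CYP2A19 it was 0.56, 0.53 and 0.45, with CYP2C33 and CYP2A19 at the floor on some arrays. The brightest probe of CYP3A29, partly saturated, had an SD of 0.35. The least saturated probes of CYP3A29 and CYP3A46 had an SD of 1.24 and 1.87.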
